A study of Mus musculus with 6 samples.

Results

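Fatty acid synthesis and desaturation genes were compared between pancreatic stellate cells (PSCs) kept at 1% O2 and at 21% O2. The group held 10 genes, chosen by name for their place in the pathway, of 55426 features in the deposited table: Acly, Acaca, Acacb, Fasn and Elovl6, which build the carbon chain, Scd1, Scd2, Fads1 and Fads2, which put double bonds into it, and Srebf1, the regulator of the set. PSCs are the fibroblast precursors of the pancreas, and those used here were primary lines at passages 2 to 4 from wild-type C57BL/6 mice aged 8 to 12 weeks. They were embedded in Matrigel in an insert above organoids of mT3, a mouse pancreatic cancer line derived from a primary tumor, so PSCs of both groups shared their medium with the same tumor line. After 48 h at 21% O2 (normoxia, n = 3) or 1% O2 (hypoxia, n = 3), RNA was sequenced, and the labels do not say whether replicates came from separate animals or lines, so p-values measure only the spread between these samples, which may be technical.

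De novo lipogenesis turns citrate into fat. ATP citrate lyase (Acly) splits citrate to acetyl-CoA in the cytosol, acetyl-CoA carboxylase makes malonyl-CoA from it, fatty acid synthase (Fasn) joins these units to palmitate with NADPH as the reductant, and Elovl6 lengthens palmitate to stearate. Stearoyl-CoA desaturases (Scd) then make monounsaturated fatty acids, and Fads1 and Fads2 are the delta-5 and delta-6 desaturases of polyunsaturated fatty acids. Desaturases use molecular oxygen and electrons from cytochrome b5, whereas the carboxylase, synthase and elongase steps do not use oxygen. Transcription of most of these genes is driven by the sterol regulatory element binding proteins, of which Srebf1 encodes the first.

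Library totals ran from 24749601 to 31925054 counts, at which 3 counts correspond to 0.0943 to 0.122 counts per 1000000 (CPM), and intervals and limits of this kind cover counting error only. Stellate cell and fibroblast markers summed to 28610 to 35910 CPM in normoxic and 30600 to 35470 CPM in hypoxic samples, with most of each sum from Col1a1, Col1a2 and Col3a1. Of these 12 markers 3 fell (Lum by 2.17, Thy1 by 1.00 and Acta2 by 0.65 on the log2 scale) and 2 rose (Pdpn by 0.99 and Pdgfra by 0.82). The 8 epithelial markers summed to 3.23 to 5.32 CPM in normoxic and 24.98 to 28.9 CPM in hypoxic samples. Of these, Epcam, Krt8 and Cdh1 stood at or near 0 in all 6 samples, Krt19 rose (0.715 to 22.1 CPM, log2 fold change 4.94 ± 0.19, adjusted p = 1.3e-07 in edgeR), and Muc1 (2.57 against 3.83 CPM) was not called by edgeR, while limma-voom called 2 epithelial markers higher. The hypoxia reference genes rose in 10 of 10 cases (median log2 fold change 2.04), among them Vegfa (2.01 ± 0.12), Slc2a1 (1.68 ± 0.07) and Car9 (5.13 ± 0.11; SE). Normoxic replicate 2 stood apart from the other normoxic libraries, with a chi-square of its counts over genes of 22.5 and 16.0 per degree of freedom against replicates 1 and 3, which differed from each other by 6.32. Hypoxic replicate 2 likewise differed more from hypoxic replicates 1 and 3 (11.9 and 10.1) than these did from each other (5.68). The fold changes of the 10 genes are given with and without normoxic replicate 2.

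Scd1 and Scd2 are neighbours on chromosome 19 and near copies of each other, so how far reads can tell them apart bears on every value given for them. Over 1065 aligned coding bases they were 90.33% identical (962 bases), and the longest run without a difference was 147 bases. The stretch shown here, in coding exon 4 of both genes, is where they are hardest to separate. Of 180 bases 179 were identical, and the capital letter marks the single base that differs. Sequences were read from GRCm38, Scd1 at chr19:44401707-44401886 on the minus strand and Scd2 at chr19:44299621-44299800 on the plus strand, and both are written 5′ to 3′ along the transcript.
Scd1: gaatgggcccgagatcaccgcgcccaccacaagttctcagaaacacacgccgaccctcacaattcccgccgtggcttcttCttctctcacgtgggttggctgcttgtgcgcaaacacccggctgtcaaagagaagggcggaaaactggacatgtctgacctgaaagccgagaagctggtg
Scd2: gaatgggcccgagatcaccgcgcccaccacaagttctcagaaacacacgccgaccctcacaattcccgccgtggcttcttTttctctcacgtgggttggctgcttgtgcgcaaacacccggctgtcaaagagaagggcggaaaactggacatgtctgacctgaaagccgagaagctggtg
Elsewhere the transcripts diverge. Of all 50-base windows of the longest-coding transcript, 4.66% of Scd1 and 4.01% of Scd2 also occurred in another gene. Reads that could come from either gene therefore arise from a small part of the message. The same count was 52.56% for Acaca, shared with the processed pseudogene Gm5182, 4.40% for Elovl6 and 0.16% for Fads2, and 0 for Acly, Acacb, Fasn, Fads1 and Srebf1.

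Lipogenic genes were lower in hypoxic PSCs, except Acacb. Of the 10 genes, all of which passed the filter on low counts, 8 fell, 0 rose and 2 (Acacb and Scd2) were not called, where a call needed a fold change beyond 1.5 and an adjusted p under 0.05 in edgeR's quasi-likelihood test. Over all 16207 genes tested, 34.2% were called in either direction, 18.9% higher and 15.3% lower. At an unadjusted p under 0.05, 9 of the 10 were lower and 1 higher. Passing on p alone was common, since 10168 of the 16207 genes tested had an adjusted p under 0.05 in edgeR. DESeq2 and limma-voom also called 8 of the 10 genes lower and 0 higher. The median log2 fold change of the 10 genes was -1.25, beside -0.00 over all genes tested. Normoxic and hypoxic samples did not overlap for any of the 10 genes, 9 with the hypoxic samples below and Acacb with them above, whereas 68.9% of all genes tested had groups that did not overlap. The plot of levels by sample shows this separation gene by gene.

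**Figure D1:**
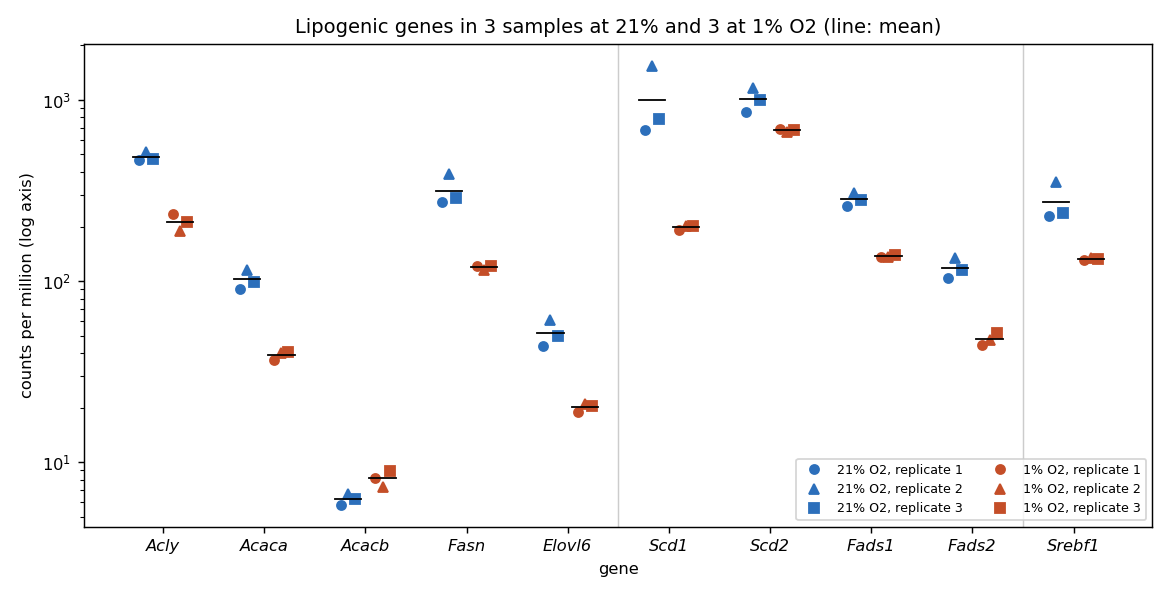
CPM on a log axis for the 10 genes in each of 3 samples at 21% O2 (blue) and 3 at 1% O2 (orange), with symbols for the replicate number and a line at the mean; grey lines part chain-building enzymes, desaturases and Srebf1. Hypoxic samples lie below normoxic ones for every gene but Acacb, and the triangle of normoxic replicate 2 is the highest normoxic point of each gene.

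Acly, at the head of the pathway, fell. Acly (minus strand of chromosome 11, 100476353 to 100528000) was at 467, 518 and 470 CPM in normoxic replicates 1, 2 and 3 and at 234, 190 and 212 CPM in the hypoxic ones. Every hypoxic sample was thus below every normoxic one, and the spread within either group was small against the gap. The level was 2.29-fold lower in hypoxia (log2 fold change -1.19 ± 0.08 SE, adjusted p = 3.6e-06 in edgeR).

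Of the acetyl-CoA carboxylases, Acaca fell and Acacb was not called. Acaca (chromosome 11, 84129672 to 84401651), the cytosolic carboxylase that supplies malonyl-CoA for synthesis, was at 90.9, 116 and 99.4 CPM in normoxia and at 36.6, 40.0 and 40.5 CPM in hypoxia. It fell 2.61-fold (log2 fold change -1.39 ± 0.09, adjusted p = 2.29e-06 in edgeR), with hypoxic samples tightly grouped. Acacb (chromosome 5, 114146535 to 114250761), the mitochondria-bound form whose malonyl-CoA restrains fatty acid oxidation, was at 5.81, 6.64 and 6.25 CPM in normoxia and at 8.17, 7.31 and 8.93 CPM in hypoxia, from 151 to 284 counts per sample. Its log2 fold change of 0.38 ± 0.12 (95% interval 0.11 to 0.66, adjusted p = 0.0203 in edgeR) stayed short of the 1.5-fold threshold.

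Because most of the 50-base Acaca windows recur in Gm5182, that pseudogene was examined as well. It held 29, 30 and 46 counts in normoxia and 17, 25 and 17 in hypoxia, against 2362 to 3048 and 931 to 1288 counts for Acaca. Summing Acaca, Acacb and Gm5182 before the fit gave 110 ± 12.9 CPM in normoxia and 47.8 ± 2.29 CPM in hypoxia (SD, n = 3), a log2 fold change of -1.20 ± 0.09 (adjusted p = 4.22e-06 in edgeR). Per kilobase of exon, Acacb made up 10.2%, 9.24% and 10.03% of the carboxylase signal in normoxic replicates 1, 2 and 3 and 28.4%, 24.5% and 28.1% in the hypoxic ones. The minor carboxylase thus held a larger share in each hypoxic sample than in any normoxic one. Exons were merged over all transcripts, which for Acaca gives 17074 bases against 9513 in its longest-coding transcript. The shares of Acacb are therefore overstated in both groups.

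The genes of palmitate synthesis and elongation both fell. Fasn (minus strand of chromosome 11, 120805846 to 120824547) was at 272, 388 and 288 CPM in normoxia and at 120, 114 and 122 CPM in hypoxia, a 2.66-fold lower level (log2 fold change -1.41 ± 0.12, adjusted p = 1.26e-05 in edgeR). Elovl6 (chromosome 3, 129532355 to 129638495) was at 43.9, 60.7 and 49.9 CPM in normoxia and at 18.9, 21.0 and 20.3 CPM in hypoxia, a 2.56-fold lower level (log2 fold change -1.36 ± 0.11, adjusted p = 9.98e-06 in edgeR). For both, normoxic replicate 2 was the high sample and the hypoxic samples were close together. An antisense gene, Gm35986, shares 34 exon bases with Elovl6, and the sources used here do not state whether reads were counted by strand.

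Among desaturases, the Scd pair held both the largest and the smallest decrease of the 9 genes that were lower. Scd1 (minus strand of chromosome 19, 44394455 to 44407879), the main stearoyl-CoA desaturase of fat and liver, was at 682, 1541 and 789 CPM in normoxia and at 191, 203 and 201 CPM in hypoxia. The normoxic samples were spread over more than a factor of 2, with replicate 2 far above the others, while the hypoxic ones lay within 1.06-fold of each other. The level was 5.07-fold lower in hypoxia (log2 fold change -2.34 ± 0.27, adjusted p = 6.82e-05 in edgeR). Without normoxic replicate 2 it was 3.72-fold lower (log2 fold change -1.90, adjusted p = 1.32e-07 in edgeR).

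Scd2 (chromosome 19, 44293674 to 44306864), the isoform known from brain and from early life, was at 863, 1160 and 998 CPM in normoxia and at 688, 664 and 686 CPM in hypoxia. No hypoxic sample reached a normoxic one, but the gap was small. The log2 fold change was -0.57 ± 0.10 (95% interval -0.79 to -0.34, adjusted p = 0.00089 in edgeR), a 1.48-fold lower level just inside the threshold. It passed the threshold under 2 other scalings, without the filter, with a correction for gene length and without normoxic replicate 1, at log2 fold changes from -0.67 to -0.59. Per kilobase of exon and of all 4 Scd genes, Scd1 made up 46.9%, 59.7% and 46.9% in normoxic replicates 1, 2 and 3 and 23.6%, 25.4% and 24.6% in the hypoxic ones, and nearly all of the rest was Scd2. The sum of Scd1 to Scd4 went from 2011 ± 610 to 879 ± 10.1 CPM (SD, n = 3; log2 fold change -1.20 ± 0.18, adjusted p = 0.000319 in edgeR), a value that does not depend on how shared reads were split within the family.

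The front-end desaturases of the polyunsaturated series fell together. Fads1 (chromosome 19, 10182888 to 10196877), the delta-5 desaturase, was at 261, 306 and 282 CPM in normoxia and at 136, 136 and 139 CPM in hypoxia (2.06-fold lower, log2 fold change -1.04 ± 0.07, adjusted p = 1.86e-06 in edgeR). Fads2 (minus strand of chromosome 19, 10062765 to 10101746), the delta-6 desaturase that acts before it, was at 105, 134 and 116 CPM in normoxia and at 44.6, 47.4 and 51.5 CPM in hypoxia (2.46-fold lower, log2 fold change -1.30 ± 0.09, adjusted p = 4.31e-06 in edgeR). The hypoxic level of Fads1 was among the most even of the group, the highest sample standing 1.03-fold above the lowest. Fads3, a relative in the same cluster and not one of the 10 genes, was called neither higher nor lower (118 against 97.0 CPM, log2 fold change -0.28 ± 0.06), and its share of the 3 Fads genes per kilobase went from between 23.5% and 25.5% to between 36.2% and 38.8%.

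Srebf1 (minus strand of chromosome 11, 60199089 to 60222581) encodes SREBP-1a and SREBP-1c, which a gene-level count cannot separate. It was at 230, 351 and 239 CPM in normoxia and at 131, 135 and 132 CPM in hypoxia. Hypoxic samples were nearly equal and all below the lowest normoxic one. The level was 2.06-fold lower in hypoxia (log2 fold change -1.04 ± 0.14, adjusted p = 0.000208 in edgeR) and 1.77-fold lower without normoxic replicate 2. Rai1, on the opposite strand, shares 109 exon bases with Srebf1.

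**Figure D2:**
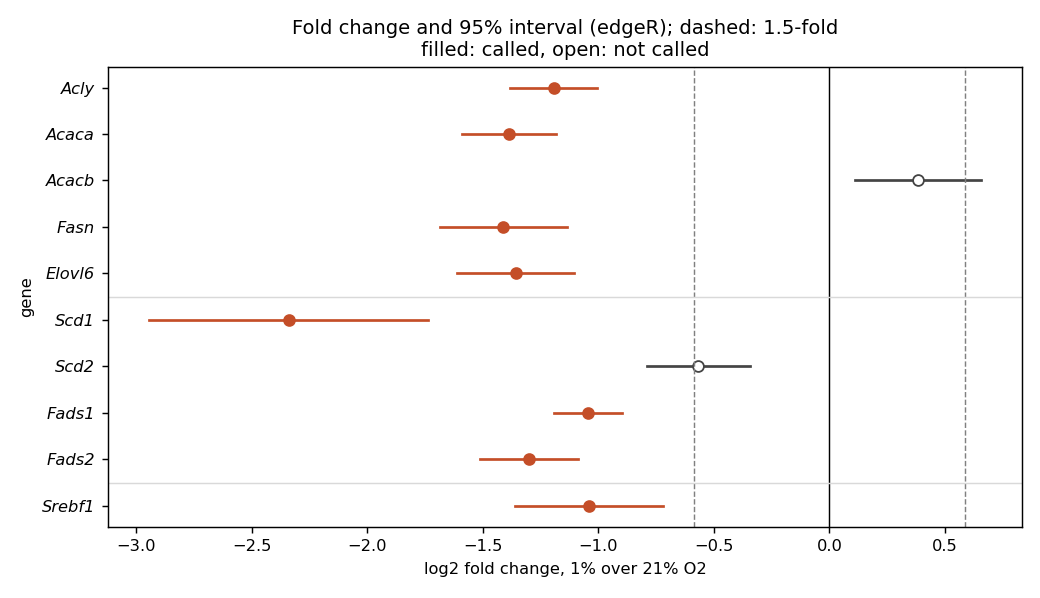
Log2 fold change of hypoxia over normoxia for each of the 10 genes, with the 95% interval of edgeR's fit (n = 3 and 3); dashed lines stand at a fold change of 1.5 in either direction, filled points were called and open points were not. Scd1 lies farthest to the left at -2.34 with the widest interval, 7 further genes lie between -1.41 and -1.04, Scd2 stands at -0.57 and Acacb at 0.38.

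As groups, the oxygen-using desaturases and the chain-building enzymes had medians close to each other. The median log2 fold change was -1.17 over the 4 desaturases and -1.36 over the 5 chain-building enzymes, of which 3 and 4 were called lower. The summed level of the desaturases went from between 1910 and 3140 CPM to between 1050 and 1078 CPM, and that of the chain-building enzymes from between 880 and 1089 CPM to between 373 and 418 CPM. Both sums separated the groups, and the desaturases spanned log2 fold changes from -2.34 (Scd1) to -0.57 (Scd2), to either side of the called chain-building enzymes.

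That contrast was measured inside each sample as the log2 ratio of the counts of 2 genes, which does not depend on library scaling. With 3 samples against 3, the exact permutation test used for 7 such ratios cannot give a two-sided p below 0.1. The log2 ratio of Scd1 to Fasn was 1.33, 1.99 and 1.45 in normoxia and 0.67, 0.82 and 0.72 in hypoxia, lower in hypoxia in each of the 9 pairings of samples across groups. These pairings reuse the same 6 samples, so 9 of 9 means only that the groups did not overlap. Of single genes tested, 68.9% did not overlap either, and the share among other ratios was not computed. The mean difference of Scd1 to Fasn was -0.85 (exact p = 0.1, adjusted p = 0.14 over the 7 ratios by the permutation test), and -0.65 at its smallest when 1 sample was left out. Scd1 to Elovl6 differed by -0.90 and Scd1 to Scd2 by -1.69, with the same exact p of 0.1 and adjusted p of 0.14 by permutation, and both were lower in 9 of 9 pairs.

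The other desaturases differed in their ratio to the synthase. Fads2 to Fasn overlapped between the groups and was -1.38, -1.54 and -1.32 in normoxia and -1.43, -1.27 and -1.24 in hypoxia (difference 0.10, exact permutation p = 0.4, adjusted p = 0.467), and the differences over the 9 pairs of samples ran from -0.11 to 0.30. Elovl6 to Fasn was -2.63, -2.68 and -2.53 in normoxia and -2.68, -2.44 and -2.58 in hypoxia (difference 0.05, exact permutation p = 0.6, adjusted p = 0.6), with pairs from -0.15 to 0.24, and without hypoxic replicate 2 its difference was -0.02. Fads1 to Fads2 was higher in hypoxia by 0.26, in 9 of 9 pairs, and Acacb to Acaca by 1.76, in 9 of 9 pairs (exact permutation p = 0.1, adjusted p = 0.14 for each). The ratios of Scd2 and Fads1 to Fasn were added after the data were seen. Scd2 to Fasn was 1.66, 1.58 and 1.79 in normoxia and 2.51, 2.54 and 2.50 in hypoxia, higher by 0.84, and Fads1 to Fasn was -0.06, -0.34 and -0.03 in normoxia and 0.18, 0.25 and 0.19 in hypoxia, higher by 0.35 (9 of 9 pairs and exact permutation p = 0.1 for each, adjusted p = 0.129 over all 9 ratios). Against Fasn, Scd1 was thus lower in every hypoxic sample, Scd2 and Fads1 were higher, and Fads2 overlapped.

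**Figure D3:**
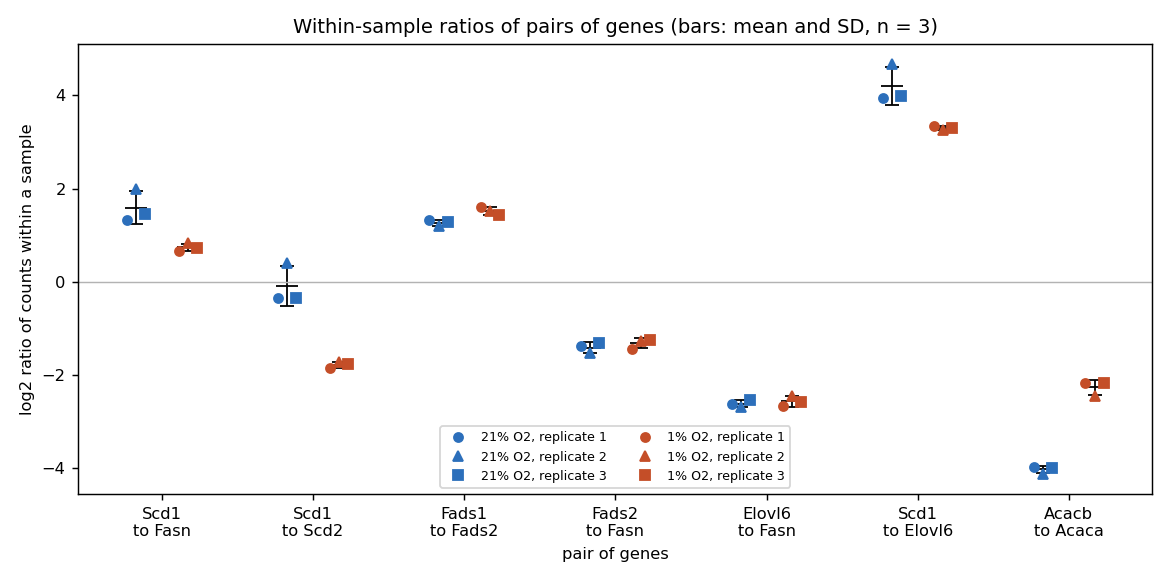
Log2 ratio of the counts of 2 genes within each sample, for 7 pairs of genes, in 3 samples at 21% O2 (blue) and 3 at 1% O2 (orange); black bars give the mean and SD. The 3 ratios with Scd1 on top lie lower in every hypoxic sample, Acacb to Acaca lies higher by 1.76, and Fads2 to Fasn and Elovl6 to Fasn overlap between the groups.

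Across genes, levels were compared only per kilobase of merged exons, a length that overstates the message where a gene has many alternative exons. Acaca is such a gene, with 17074 bases of merged exons against 9513 in its longest-coding transcript. Its level on this scale is thus understated, and its place below Elovl6 (6431 against 5951 bases) depends on the length used. In normoxia Scd1 (205 ± 95.7 CPM per kilobase, SD, n = 3) and Scd2 (184 ± 27.3) stood highest and their samples overlapped. Below them came Acly at 91.9, then Fads1 at 58.8 and Srebf1 at 48.5, whose samples overlapped, then Fads2 at 35.8 and Fasn at 28.9, whose samples overlapped too. Elovl6 (8.01), Acaca (5.97) and Acacb (0.647 CPM per kilobase) closed the order, each with its samples below those of the gene before it.

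In hypoxia the order of levels changed at its top and was otherwise the same. Scd2 led at 124 ± 2.40 CPM per kilobase, and Scd1 (40.5 ± 1.26) had come down among the samples of Acly (40.2 ± 4.16), with which it overlapped. Fads1, Srebf1, Fads2, Fasn, Elovl6, Acaca and Acacb followed at 28.5, 23.6, 14.5, 10.9, 3.12, 2.29 and 0.844 CPM per kilobase, and no neighbours among these overlapped. Acacb, which was 9.23-fold below Acaca in normoxia, was 2.71-fold below it in hypoxia on this scale, which narrows both gaps by overstating the length of Acaca.

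The normoxic spread was shared across the group. Normoxic replicate 2 was the highest normoxic sample for 10 of 10 genes, by 1.10 to 2.10 times the mean of the other normoxic samples (median 1.23), least for Acacb and Acly and most for Scd1. The coefficient of variation was smaller in hypoxia than in normoxia for 8 of the 10 genes, and larger for Acly (10.3% against 5.88%) and Acacb (9.95% against 6.65%). Leaving that library out kept 8 of the 10 genes called lower and 0 called higher by edgeR. The log2 fold changes were then -1.15 for Acly, -1.29 for Acaca, 0.43 for Acacb, -1.24 for Fasn, -1.23 for Elovl6, -1.90 for Scd1, -0.46 for Scd2, -0.99 for Fads1, -1.21 for Fads2 and -0.83 for Srebf1.

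Markers of fat cells and most macrophage markers also fell. Fat cells are the classical lipogenic cell, and their markers summed to 690, 1649 and 640 CPM in normoxic replicates 1, 2 and 3 and to 75.1, 91.8 and 73.5 CPM in the hypoxic ones. Of 10 fat cell markers 7 were tested and all 7 fell (median log2 fold change -3.56), among them Adipoq (26.8, 78.2 and 30.6 against 1.53, 3.06 and 1.23 CPM) and Plin1, the lipid droplet coat protein (180, 356 and 144 against 7.15, 11.8 and 7.10 CPM). The defining gene Lep was at 0 in all 6 samples, and Cidea and Pck1 were at or near 0. Normoxic replicate 2 was the highest normoxic sample for all 7 markers tested, at 1.99 to 4.16 times the mean of the other normoxic samples.

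Macrophage markers summed to 980, 1747 and 1362 CPM in normoxia and to 497, 895 and 604 CPM in hypoxia, and 8 of 12 fell (median log2 fold change -1.09), for example Lyz2 (-1.12 ± 0.23). Csf1r (-0.24), Itgam (-0.00), Cd14 (0.08) and Ptprc (-0.59) were not called by edgeR. Within hypoxia the summed level varied, with hypoxic replicate 2 the highest. That replicate was also the highest hypoxic sample for the fat cell sum (91.8 against 75.1 and 73.5 CPM). Among the 10 lipogenic genes it was the highest for Elovl6, Scd1 and Srebf1, by small margins, and not for the others. Most of the macrophage sum was Lyz2 (mean 900 of 1363 CPM in normoxia and 413 of 665 CPM in hypoxia). Most of the fat cell sum was Fabp4 (mean 639 of 993 CPM and 54.4 of 80.1 CPM). In bulk RNA, fewer cells of a type and less RNA per cell cannot be told apart, and the part of the fat cell and macrophage signals in the lipogenic values was not tested.

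**Figure D4:**
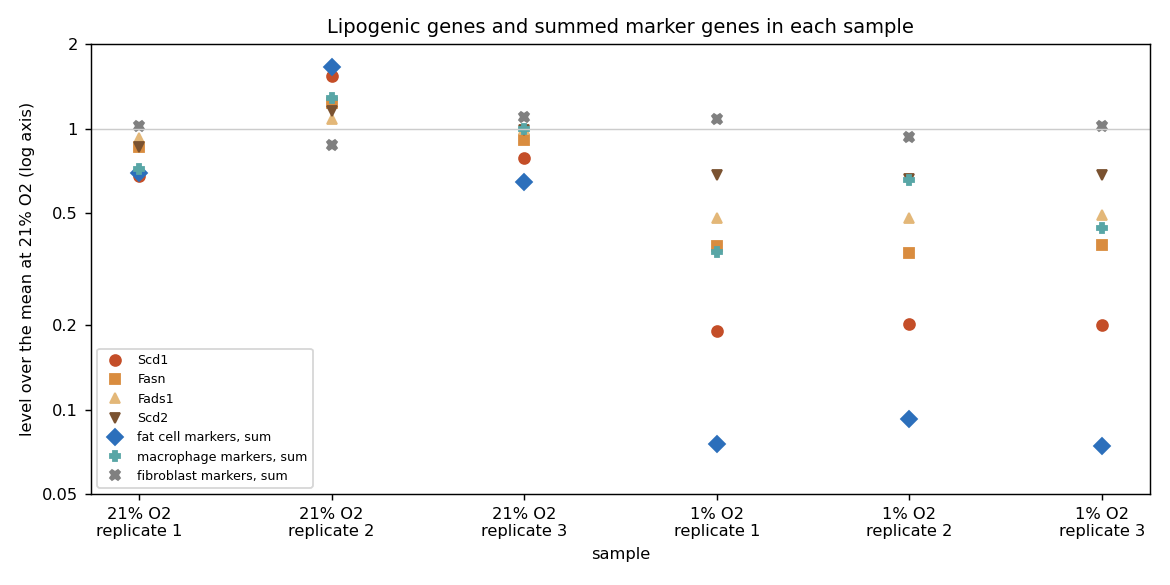
Level in each sample over the mean of the 3 samples at 21% O2, on a log axis, for Scd1, Fasn, Fads1 and Scd2 and for the summed markers of fat cells, macrophages and fibroblasts. Fat cell markers peak in normoxic replicate 2 and lie lowest in hypoxia, Scd1 has the same high normoxic sample, and the fibroblast sum, most of it collagen genes, stays near 1 although single fibroblast markers fell or rose.

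The rest of the fatty acid pathway held genes that fell, rose and were not called. Of 76 other pathway genes, 71 passed the filter, of which 29 fell, 6 rose and 36 were not called (median log2 fold change -0.43), beside 15.3% and 18.9% of all genes tested. Without normoxic replicate 2, 25 of these genes were called lower and 5 higher. With a correction for GC content 31 were lower and 4 higher, and with a replicate block in DESeq2 27 were lower and 4 higher. The lists they belong to are described in the order of the pathway.

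Supply of acetyl-CoA and NADPH was lower for 6 of 10 genes, with 0 higher by edgeR (0 also at an unadjusted p under 0.05 and by DESeq2 and limma-voom) and a median of -0.66. The largest decreases were in Idh1 (377 ± 41.3 to 140 ± 3.08 CPM, log2 fold change -1.44), a cytosolic source of NADPH, in G6pdx (-1.04), the entry enzyme of the pentose phosphate pathway, and in Cs (-1.03), which makes the citrate that Acly splits. Pgd, the later NADPH-producing enzyme of the pentose phosphate pathway, was named after its value was seen (315 against 327 CPM, log2 fold change 0.06 ± 0.07, adjusted p = 0.514 in edgeR). Its neighbour in the pathway, G6pdx, was thus lower while Pgd was not called.

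Elongation beyond Elovl6 was lower for 4 of the 9 genes tested, with 0 higher by edgeR (1, Hacd1, at an unadjusted p under 0.05, and 0 by DESeq2 and limma-voom) and a median of -0.51. Hacd2, a dehydratase of the elongation cycle, fell by 1.39 on the log2 scale, Elovl5, the elongase of polyunsaturated chains, by 1.14 and Hacd4 by 0.83. Elovl2, Elovl3 and Elovl7 were below the filter. Elovl1 (log2 fold change -0.51, adjusted p = 0.000112 in edgeR) and Hsd17b12 (-0.43, adjusted p = 0.0019 in edgeR) were lower by less than the 1.5-fold threshold.

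Desaturation depends on electrons passed through cytochrome b5, and both of its genes fell, Cyb5b by 1.12 (224 ± 19.3 to 103 ± 4.45 CPM) and Cyb5a by 0.93 on the log2 scale. Their list held 10 tested genes, of which 4 fell and 1 rose (median -0.33). Fads6, a member of the fatty acid desaturase family, fell by 1.02, while the main reductase Cyb5r3 (-0.38 ± 0.06) was not called. The gene that rose was Scd4, named after its value was seen, which stood near 1 CPM and was not called by DESeq2 (0.50, 0.80 and 0.49 against 1.41, 0.99 and 1.01 CPM).

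Of 19 regulators 8 fell and 2 rose (median -0.15). Thrsp, a promoter of lipogenesis in fat and liver, held 41, 209 and 51 counts in normoxia and 2, 2 and 1 in hypoxia, a ratio of 69.3 over the summed counts with an exact binomial 95% interval from 29.4 to 215, for counting error only, and without normoxic replicate 2 the ratio was 32.2 (13.3 to 102). Ppargc1b, a coactivator of SREBP, fell by 2.35, and Mlxipl, which encodes the carbohydrate response factor ChREBP, fell by 2.28 (5.01, 15.1 and 7.91 against 1.41, 2.27 and 2.01 CPM, and -1.76 without normoxic replicate 2). The INSIG genes, which hold SREBP precursors in the endoplasmic reticulum, went in opposite directions, with Insig2 higher (39.0 ± 1.04 to 73.8 ± 3.79 CPM, log2 fold change 0.92) and Insig1, named after its value was seen, lower (300.5 ± 83.1 to 73.3 ± 8.63 CPM, log2 fold change -2.04, adjusted p = 1.32e-05 in edgeR).

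Nr1h2, which encodes the oxysterol receptor LXR beta, was the other regulator that rose (log2 fold change 0.66), a call lost with a correction for GC content (0.55) and at a fold threshold of 2. The other LXR gene, Nr1h3 (-0.67, adjusted p = 0.00291 in edgeR), and Rxra, which encodes a partner of both receptors (-0.88, adjusted p = 2.3e-06 in edgeR), fell, and both were named after their values were seen. For Nr1h3 normoxic replicate 2 was the high sample (31.1, 43.9 and 31.9 against 19.9, 25.7 and 21.7 CPM). Srebf2, the cholesterol-directed relative of Srebf1, fell by 0.62, and Mid1ip1, a partner of Thrsp that promotes polymerization of acetyl-CoA carboxylase, fell by 1.48, and both were named after their values were seen. The SREBP escort Scap (-0.15), its processing protease Mbtps2 (0.08) and the kinase subunit Prkaa1 (-0.07) were not called.

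Of 14 genes of fatty acid uptake and activation 7 fell and 3 rose (median -0.58). Fabp4 (432, 1076 and 410 against 49.8, 62.5 and 50.8 CPM), a fatty acid carrier that is also one of the fat cell markers, fell by 3.56, the acyl-CoA synthetase Acsl1 by 3.34 and the fatty acid translocase Cd36 by 2.64 on the log2 scale. In these 3 genes normoxic replicate 2 was again the highest sample, and without it the log2 fold changes were -2.96 for Fabp4, -2.79 for Acsl1 and -2.08 for Cd36. Slc27a3, of the family of fatty acid transport proteins, rose from 12.1, 14.0 and 14.6 to 64.7, 64.1 and 61.6 CPM (log2 fold change 2.23 ± 0.08), Acsl4 by 0.62 and Acsl6, at 2.66 against 4.02 CPM, by 0.60. The call of Acsl6 was lost under 10 of 18 other settings, and that of Acsl4 without normoxic replicate 2 (0.57) and with a correction for GC content (also 0.57), and at a fold threshold of 2.

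Fatty acid synthesis inside mitochondria, a separate pathway that feeds lipoate production, gave no call in 9 genes tested (median -0.28), with 3 of the 9 lower and 0 higher at an unadjusted p under 0.05 in edgeR, and 0 calls by DESeq2 and limma-voom. The 3 lower genes were Mecr (log2 fold change -0.57), Lias (-0.52) and Ndufab1 (-0.36), each by less than the 1.5-fold threshold. Over all genes, 10168 of 16207 passed even at an adjusted p under 0.05 in edgeR. Mcat and Cbr4, steps of that pathway, were at log2 fold changes of -0.00 and 0.02. The plot of all lists sets these genes beside the cytosolic ones.

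**Figure D5:**
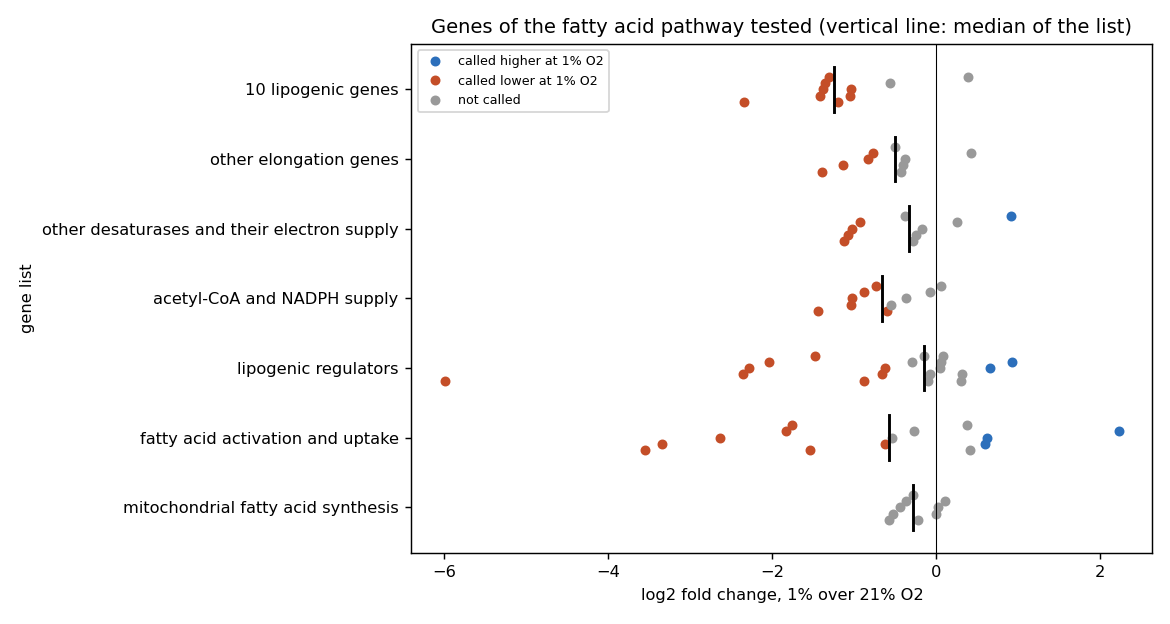
Log2 fold change of hypoxia over normoxia for every tested gene of the 10 lipogenic genes and of 6 further lists of the fatty acid pathway; orange points were called lower, blue points higher and grey points not called, and the vertical line is the median of each list. The median is -1.25 for the lipogenic genes and between -0.66 and -0.15 for the other lists, and the mitochondrial list holds no called gene.

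Promoter sequence was looked at for what the genes that fell have in common. RefSeq's table on GRCm38.p6 held 7 of the 10 genes, with 9 start sites (Acly, Acaca, Acacb, Fasn, Elovl6, Fads2 and 3 for Srebf1), and Scd1, Scd2 and Fads1 were not in it. The 250 bases before each start site were searched on both strands for a sterol regulatory element core (TCACNCCAC, in 1.05% of 32851 promoter windows of that length), the E-box CACGTG (6.02%), the hypoxia response element core ACGTG (16.57%), whose letters every E-box match contains, and the CCAAT box (33.85%). Neither of the first pair was found in any of the 9 windows, which says only that these letters were not in them. The windows of Fasn, Acly and Acacb are shown, as 2 genes that fell and the one that did not, each 5′ to 3′ with the matches in capitals. Fasn lies at chr11:120824548-120824797 and Acly at chr11:100528001-100528250, both on the minus strand, and Acacb at chr5:114165268-114165517 on the plus strand, before a RefSeq start that is inside the longer GENCODE gene.
Fasn: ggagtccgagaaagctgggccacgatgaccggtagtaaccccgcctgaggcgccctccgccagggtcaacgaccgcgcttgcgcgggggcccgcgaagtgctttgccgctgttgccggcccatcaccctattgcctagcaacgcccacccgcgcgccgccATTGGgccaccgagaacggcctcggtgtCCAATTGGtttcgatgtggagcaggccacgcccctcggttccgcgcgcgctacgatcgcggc
Acly: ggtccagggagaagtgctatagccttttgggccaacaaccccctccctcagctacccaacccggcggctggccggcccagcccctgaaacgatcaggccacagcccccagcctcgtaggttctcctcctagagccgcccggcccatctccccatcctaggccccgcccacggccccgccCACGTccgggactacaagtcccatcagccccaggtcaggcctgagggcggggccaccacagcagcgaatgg
Acacb: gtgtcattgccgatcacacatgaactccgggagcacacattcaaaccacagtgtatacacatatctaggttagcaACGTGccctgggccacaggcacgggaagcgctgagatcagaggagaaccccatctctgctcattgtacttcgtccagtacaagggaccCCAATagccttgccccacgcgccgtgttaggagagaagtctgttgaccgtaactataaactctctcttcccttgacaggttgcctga
In Fasn the CCAAT box occurred 3 times, at -90, -62 and -59 from the start site, the last pair overlapping on opposite strands. In Acly the hypoxia response element core occurred once, at -71, and in Acacb it occurred at -175 with a CCAAT box at -87. Of the windows not shown, those of Acaca, Elovl6 and Fads2 held none of the motifs searched, and those of Srebf1 held a CCAAT box at -166 in one and at -30 in another. The Acaca window, like that of Acacb, lies before a start inside the longer GENCODE gene. The same holds for the Srebf1 window with the box at -30 and for the one without a match. Such windows do not cover the bases before the first exon of the gene, which were not searched for Acaca and Acacb.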

How the data were processed

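RNA of 6 samples of mouse PSCs, 3 per oxygen level, was analysed from 1 table. The authors made poly(A) libraries, trimmed reads with Cutadapt and, per the labels and the methods, mapped them to GRCm38 with STAR 2.6.1b and assigned them to genes with RSEM 1.3.1. The deposited values are expected counts per gene, not normalized, and 0 of them had a fraction, so rounding changed nothing. Strand setting and annotation release are not given in the sources used here. RSEM shares out reads that fit several genes, which bears on Scd1 and Scd2 and on Acaca and Gm5182.

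Names, coordinates and exon lengths came from GENCODE M21 on GRCm38 (55240 of 55426 identifiers found, 186 not; 5 features are transgenes). edgeR 4.0.16 (R 4.3.3, limma 3.58.1) was used with filterByExpr, TMM scaling, the quasi-likelihood F test and Benjamini-Hochberg adjustment over 16207 genes. CPM are counts per 1000000 counts of the TMM-scaled library, and a standard error is the size of the log2 fold change divided by the square root of F. Replicates of a group differed by a chi-square of 5.68 to 22.5 per degree of freedom over genes, above sampling noise, so each was counted as 1 sample. Ratios within samples were compared by exact two-sided permutation tests with Benjamini-Hochberg adjustment over 7.

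The members and the gene lists were chosen with earlier results of these data known. Beside the 10 members, the text names from each other pathway list the genes called, at a mean of at least 1 CPM, with the largest log2 fold changes, up to 3 in each direction, 3 hypoxia reference genes, and marker genes at 0 or moving with the members, and exceptions are marked; genes that were not called are named for contrast. Of 143 list symbols 1 was not matched. Alternatives were other scalings and filters, DESeq2 1.42.0, limma-voom, a replicate block, corrections for GC content and length, each sample left out and other thresholds. Summed families and the ratios of Scd2 and Fads1 to Fasn were added after the data were seen. On simulated data with 15987 genes, edgeR recovered 90 of 100 genes changed by 1 and 100 of 100 changed by 2 on the log2 scale, with 5 false calls. With the replicate block there were 17 false calls. Far fewer genes changed there than the 34.2% called in the data, and evenly in both directions. The simulation therefore does not test scaling or error control in a setting like these data. Promoter sequences are RefSeq's on GRCm38.p6.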

Additional observations from a re-analysis of the deposited data

How the results depend on the processing

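Depth was not the limit for the 10 genes, the lowest of which, Acacb, had at least 151 counts per sample. With 3 samples a group, the ratio tests could not pass the threshold. Over all alternatives, 8 or 9 genes were called lower, the ninth being Scd2, and the direction of each of the 10 genes was kept. Leaving out each sample in turn moved the log2 fold change of Scd1 between -2.56 and -1.90, of Scd2 between -0.67 and -0.46 and of Srebf1 between -1.16 and -0.83, and Acacb reached an adjusted p of 0.0916 in edgeR. With the adjusted p alone, 1 lipogenic gene was called higher (Acacb), 5150 of all genes were higher and 5018 lower, and 11 other pathway genes were higher and 44 lower. At a fold change of 2, 1929 of all genes were higher and 1227 lower, and 1 other pathway gene was higher and 19 lower. The ratio of Elovl6 to Fasn ranged from -0.015 to 0.10 with 1 sample left out and was reversed without hypoxic replicate 2 (-0.015). The labels do not say whether same-numbered samples were paired. The correlations of their deviations were 0.14, 0.14 and 0.038, not all over 0.1, so the main comparison was made without pairing, although each sample correlated best with its own number, which is a hint from the data and not from the design. The fit with the replicate block called 8 lipogenic genes lower and 0 higher, 3072 of all genes higher and 2500 lower, gave Scd1 a log2 fold change of -2.24 and changed no call of the 10 genes.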
